A study of Bos taurus with 6 samples.

Results

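The miR-26 family and miR-101 were examined in extracellular vesicles (EVs) released by bovine granulosa cells, as 4 identifiers chosen by name: bta-miR-26a, bta-miR-26b, bta-miR-26c and bta-miR-101. Of these 4, bta-miR-26a, bta-miR-26b and bta-miR-101 were among the 512 miRNAs listed for every library, and bta-miR-26c was not listed. No other arm or numbered copy of these miRNAs was listed either.

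Granulosa cells are the follicle cells that surround and support the oocyte. They were aspirated from small growing follicles of slaughterhouse ovaries of Bos taurus, cultured in medium with exosome-depleted fetal bovine serum, and then either left at 37 °C (source of the control-EVs) or heated to 42 °C for 24 h (source of the HS-EVs, for heat stress). EVs were precipitated from the spent medium with ExoQuick-TC, and their small RNA was sequenced with unique molecular identifiers. There were 3 libraries per group, which the labels number as replicates and the study calls biological triplicates. How many animals or cultures stand behind a replicate was not given in the sources used here, so that p-values measure the spread between these libraries. Serum and cells both come from cattle, and the reads do not tell their miRNAs apart. Each value is relative to the other RNA of its library, so that the number of EVs and the RNA per EV cannot be told apart from these reads.

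MicroRNAs guide the Argonaute proteins to messenger RNAs that pair with their seed, the bases near the 5′ end, and lower the output of those messengers. miR-26a and miR-26b share a seed and differ at few positions elsewhere, whereas miR-101 has a seed of its own. Both families are known in other cells as repressors of EZH2, the methyltransferase of Polycomb repressive complex 2 that marks histone H3 for gene silencing. In granulosa cells of the pig, miR-26b has been linked to apoptosis. The sequences are not printed, since none of the files used here holds them.

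In RefSeq's annotation of ARS-UCD2.0, which is not the assembly used to map the reads, bta-miR-26a has 2 genes, bta-miR-26b has 1 and bta-miR-101 has 2. The genes of the miR-26 family overlap genes for small phosphatases of the C-terminal domain of RNA polymerase II. MIR26A-1 overlaps CTDSPL on chromosome 22, MIR26A-2 overlaps CTDSP2 on chromosome 5, and MIR26B overlaps CTDSP1 on chromosome 2. MIR101-2 overlaps RCL1 on chromosome 8, and MIR101-1 overlaps the unnamed locus LOC132344975 on chromosome 3. The unlisted bta-miR-26c has its gene, MIR26C, on the same interval as MIR26A-1. A value of bta-miR-26a or bta-miR-101 does not tell the products of its 2 genes apart. Since a mismatch was tolerated in mapping, reads of bta-miR-26a and bta-miR-26b could also have been split between these close relatives.

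The deposited values are read counts scaled with TMM factors (trimmed mean of M-values), an approach that assumes that most miRNAs do not differ between libraries. Every value of a library was a whole multiple of its smallest positive value, which was taken as 1 read, giving 274434 to 2360980 reads per library. In every library these totals were above the number that the study lists as mapped to annotated miRNAs, most so in HS-EVs replicate 1, and the sources used here do not say why. Shares and counting intervals below are therefore in recovered reads, whose relation to sequenced molecules is not known. Between 59.9% and 98.6% of these reads were assigned to bta-miR-1246, the most abundant miRNA, and 34141 to 235634 were left for all others. HS-EVs replicate 1 stood apart as the library with the most reads, the highest share on bta-miR-1246 and the fewest reads on other miRNAs. Fold changes, shares, ratios and the correlations of members with their most alike miRNAs are therefore also given without it. Of 6 miRNAs known from granulosa cells, 4 reached 10 reads in every library (bta-miR-21-5p, bta-miR-202, bta-miR-224, bta-miR-132), while 2 had at most 1 read in any (bta-miR-383, bta-miR-212).

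All 3 listed members were well covered, with 302 to 1465 reads of bta-miR-26a, 187 to 705 of bta-miR-26b and 106 to 601 of bta-miR-101 per library. By the mean normalized read count over the 6 libraries, bta-miR-26a ranked 21, bta-miR-26b ranked 35 and bta-miR-101 ranked 52 of 512. Taking a miRNA as detected where 2 of the 3 libraries of a group held a normalized read count of at least 10, all 3 were detected in both groups. bta-miR-26a exceeded bta-miR-26b and bta-miR-101 in 6 of 6 libraries. The order of bta-miR-26b and bta-miR-101 was not the same throughout: bta-miR-26b had more reads in 3 of 3 HS-EVs libraries and in 1 of 3 control-EVs libraries. Ligation and amplification differ between sequences, so that these orders are of reads and not of molecules.

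bta-miR-26a was, on average, higher in HS-EVs, but the groups overlapped. In the order of replicates 1, 2 and 3, which holds for all values below, the control-EVs libraries had normalized read counts of 1450, 592 and 794, and the HS-EVs libraries had 1241, 1457 and 2388. Control-EVs replicate 1 lay inside the range of HS-EVs, whereas the other two control-EVs libraries lay below it. Averages were 945 ± 449 for control-EVs against 1695 ± 609 for HS-EVs (mean ± SD, n = 3 each, as for all means below). The log2 fold change of HS-EVs over control-EVs was 0.89 (standard error 0.51, 95% interval -0.26 to 2.03, adjusted p = 0.873 from limma over all 512 miRNAs). On the fold scale, that interval runs from 0.837 to 4.09, so that neither equal levels nor a change of several fold were set apart by these libraries.

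bta-miR-26b, the second member of the family, showed nearly the same pattern at a lower level. Control-EVs had normalized read counts of 795, 320 and 403, whereas HS-EVs had 768, 741 and 1149. Here too, control-EVs replicate 1 lay among the HS-EVs libraries, and only HS-EVs replicate 3 exceeded it. Averages were 506 ± 254 for control-EVs against 886 ± 228 for HS-EVs. The log2 fold change was 0.89 (standard error 0.50, 95% interval -0.23 to 2.01, adjusted p = 0.873 from limma).

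In normalized read counts, bta-miR-101 differed little between the libraries, and its mean was slightly lower in HS-EVs. As a share of all reads it varied more, from 0.00449% to 0.102%. Control-EVs had normalized read counts of 396, 419 and 451, whereas HS-EVs had 436, 383 and 329. HS-EVs replicates 2 and 3 lay below every control-EVs library, and HS-EVs replicate 1 lay among them. Averages were 422 ± 27.1 for control-EVs against 383 ± 53.1 for HS-EVs. The log2 fold change was -0.15 (standard error 0.42, 95% interval -1.09 to 0.79, adjusted p = 0.952 from limma).

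**Figure D1:**
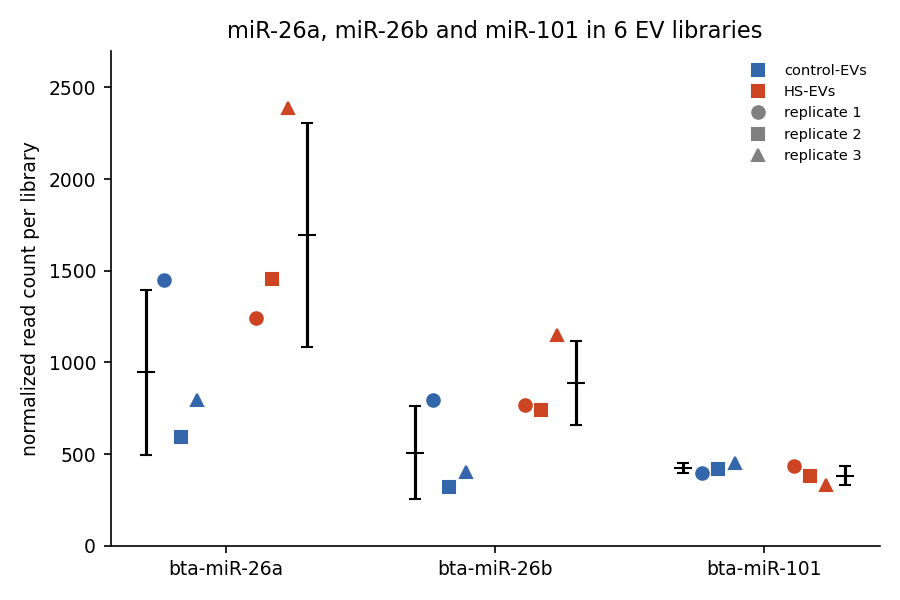
Normalized read counts (vertical axis, linear from 0) of bta-miR-26a, bta-miR-26b and bta-miR-101 in the 3 control-EVs libraries (blue) and the 3 HS-EVs libraries (red), with marker shape for the replicate number and black bars for mean ± SD. For bta-miR-26a and bta-miR-26b, control-EVs replicate 1 (1450 and 795) sits among the HS-EVs libraries, and bta-miR-101 stays between 329 and 451.

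The study's threshold for EVs asks for an adjusted p of at most 0.3 and a log2 fold change of at least 1 in either direction. With edgeR, the study did name miRNAs as enriched in HS-EVs by this threshold, with no member among them. Here, limma on the deposited values called by it 0 of the 3 members and 0 of all 512 miRNAs (0%). At an unadjusted p-value of 0.05 or less it counted 0 of the 3 members and 25 of 512 (4.88%). Groups that did not overlap were found for 0 of the 3 members and for 33 of 512 miRNAs (6.45%). Run on whole reads, the quasi-likelihood test of edgeR called 3 miRNAs by the study's threshold and DESeq2 called 0, with no member among them. Unadjusted p-values of bta-miR-26a and bta-miR-26b were 0.115 and 0.106 from limma, 0.0332 and 0.0405 from edgeR, and 0.0533 and 0.0589 from DESeq2. With limma's mean-variance trend they were 0.0114 and 0.00977. Adjusted p-values over all 512 miRNAs were 0.536 for both with the trend and 0.798 for both with edgeR. Those from DESeq2, which gave adjusted p-values for 510 miRNAs, were 0.995. At an unadjusted p of 0.05 or less, the trend counted 25 of 512 miRNAs (4.88%) and edgeR 26 (5.08%), each with 2 of the 3 members among them, and DESeq2 counted 10 (1.95%) with 0 members. A single exact permutation test of the normalized read counts (two-sided) gave p = 0.2 for bta-miR-26a, 0.3 for bta-miR-26b and 0.4 for bta-miR-101, where 0.1 is the smallest p that 3 libraries against 3 allow.

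The direction for the miR-26 family depended on how libraries were scaled and, on the scale of all reads, on HS-EVs replicate 1. The deposited values gave a log2 fold change of 0.89 for both miRNAs, and it lay between 0.84 and 1.00 on recovered reads scaled by newly computed TMM factors, by median-of-ratios factors or by all reads not on bta-miR-1246. On reads scaled by all reads it turned to -0.64 for both, where the median of all 512 miRNAs had moved from 0.01 to -0.79. Relative to that median, bta-miR-26a lay 0.88 above it in the deposited values and 0.15 above it on reads scaled by all reads. For bta-miR-101, the log2 fold change was -1.67 on reads scaled by all reads and lay 0.16 below the median in the deposited values and 0.88 below it on that scale. These are differences of mean log2 values, and for the miR-26 family the turn came with 1 library, HS-EVs replicate 1, which had the fewest reads on other miRNAs. HS-EVs replicates 2 and 3 had a larger share of all reads on bta-miR-26a and bta-miR-26b than every control-EVs library. Without HS-EVs replicate 1, the mean share of all reads was higher in HS-EVs by 0.112 percentage points for bta-miR-26a and by 0.0499 for bta-miR-26b. Without HS-EVs replicate 2 or 3, the mean was lower in HS-EVs, with differences of -0.0122 and -0.0127 for bta-miR-26a and of -0.0126 and -0.00929 for bta-miR-26b.

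**Figure D2:**
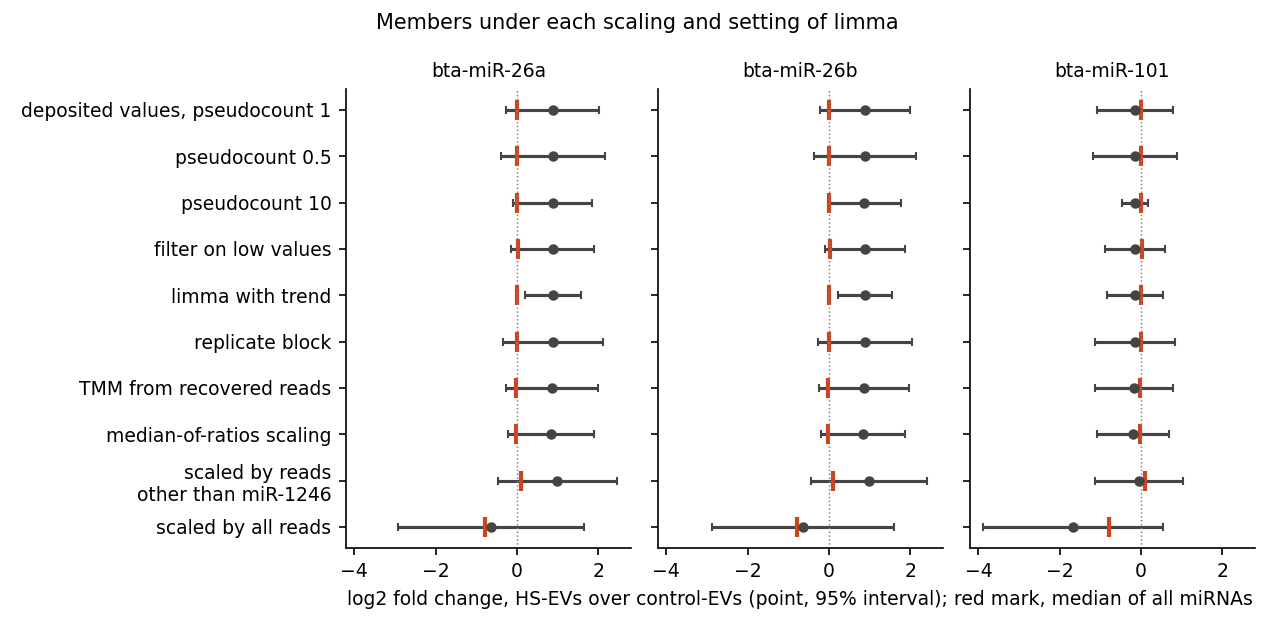
Log2 fold change of HS-EVs over control-EVs for each member (black points with 95% intervals from limma) under 10 settings, with the median of all miRNAs tested in red. With all reads as the scale, the points of bta-miR-26a and bta-miR-26b lie at -0.64 beside a median of -0.79, and in the other settings they lie between 0.84 and 1.00.

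As a share of all recovered reads, bta-miR-26a took 0.159%, 0.144% and 0.146% in control-EVs, whereas it took 0.0128%, 0.262% and 0.263% in HS-EVs. The low value came from HS-EVs replicate 1, with a 95% Wilson interval of 0.0114% to 0.0143% that covers counting error only. Control-EVs agreed closely on this scale, at 0.150% ± 0.00761, whereas HS-EVs had 0.179% ± 0.144 (exact permutation test, two-sided, p = 1). Among the reads other than bta-miR-1246, the share was 1.03%, 0.360% and 0.546% in control-EVs and 0.885%, 1.07% and 1.69% in HS-EVs. The mean was then 0.646% ± 0.346 against 1.22% ± 0.421 (exact permutation test, two-sided, p = 0.2). That difference of 0.570 percentage points was 0.736 without HS-EVs replicate 1, 0.333 without HS-EVs replicate 3 and 0.928 without both libraries of replicate 1. The control-EVs libraries thus had similar shares of all reads but differed in shares of the reads other than bta-miR-1246.

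bta-miR-26b followed bta-miR-26a on both scales. Its share of all reads was 0.0798% ± 0.00644 in control-EVs against 0.0891% ± 0.0704 in HS-EVs (exact permutation test, two-sided, p = 1). Its share of the reads other than bta-miR-1246 was 0.346% ± 0.194 against 0.636% ± 0.154 (exact permutation test, two-sided, p = 0.3), a difference of 0.290 percentage points that was 0.334 without HS-EVs replicate 1. bta-miR-101 took 0.0762% ± 0.0300 of all reads in control-EVs against 0.0365% ± 0.0321 in HS-EVs (exact permutation test, two-sided, p = 0.2). That difference of -0.0398 percentage points was -0.0238 without HS-EVs replicate 1. Among the reads other than bta-miR-1246 its share was 0.282% ± 0.0274 against 0.275% ± 0.0392 (exact permutation test, two-sided, p = 1), a difference of -0.00717 percentage points that was -0.0249 without HS-EVs replicate 1. The 6 libraries held between 0.233% and 0.310% on that scale.

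A ratio between 2 members within a library does not depend on the scaling between libraries. The ratio of bta-miR-26a to bta-miR-26b was nearly constant, with 1.82, 1.85 and 1.97 for control-EVs against 1.61, 1.97 and 2.08 for HS-EVs. The lowest ratio, in HS-EVs replicate 1, had a 95% counting interval of 1.35 to 1.94, and the highest, in HS-EVs replicate 3, one of 1.90 to 2.27. The difference in mean log2 ratio between the groups was -0.00, on means of 0.91 ± 0.06 for control-EVs and 0.91 ± 0.19 for HS-EVs (exact permutation test, two-sided, p = 0.9, adjusted p over 3 ratios 0.9). Over the 6 libraries, the SD of this log2 ratio was 0.127. Among the 1128 pairs of the 48 miRNAs with 100 or more reads in every library, the median SD was 0.617 and 7 pairs had a smaller SD than bta-miR-26a and bta-miR-26b.

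The ratio of bta-miR-26a to bta-miR-101 varied far more, with 3.66, 1.41 and 1.76 for control-EVs against 2.85, 3.81 and 7.25 for HS-EVs. Control-EVs replicate 1 lay inside the range of HS-EVs. The mean log2 ratio was 1.06 ± 0.72 in control-EVs and, higher by 1.04, 2.10 ± 0.69 in HS-EVs (exact permutation test, two-sided, p = 0.2, adjusted p over 3 ratios 0.45). The ratio of bta-miR-26b to bta-miR-101 was 2.005 (counting interval 1.70 to 2.36), 0.764 and 0.895 in control-EVs and 1.76, 1.94 and 3.49 in HS-EVs. Its mean log2 value was 0.15 ± 0.75 in control-EVs and, likewise higher by 1.04, 1.19 ± 0.53 in HS-EVs (exact permutation test, two-sided, p = 0.3, adjusted p over 3 ratios 0.45). In both ratios to bta-miR-101, the difference between the group means was larger than the SD of either group, but the groups overlapped. The exact tests could not pass 0.05, since 0.1 is the smallest p that 3 libraries against 3 allow. Leaving out each library in turn gave differences from 0.66 (without HS-EVs replicate 3) to 1.44 (without control-EVs replicate 1) for bta-miR-26a and from 0.73 to 1.47, without the same libraries, for bta-miR-26b. They were 1.33 and 1.23 without HS-EVs replicate 1, and 1.74 and 1.65 without both libraries of replicate 1.

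**Figure D3:**
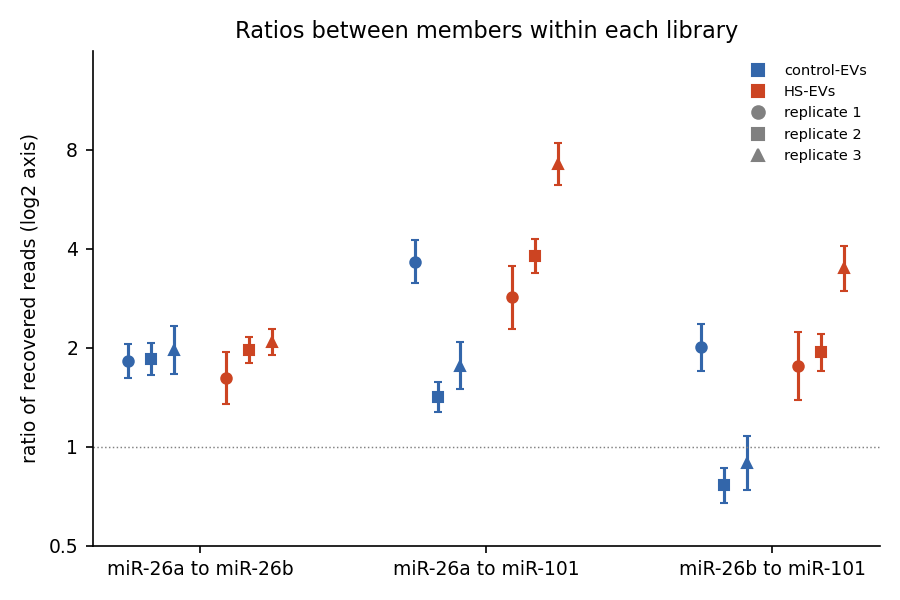
Ratios of recovered reads between members (vertical log2 axis) in the 3 control-EVs (blue) and 3 HS-EVs (red) libraries, with bars for 95% counting intervals. The ratio of miR-26a to miR-26b stays between 1.61 and 2.08 in all 6 libraries, and that of miR-26a to miR-101 runs from 1.41 to 7.25.

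bta-miR-101 made up 15.0%, 31.5% and 27.3% of the reads on the 3 members in control-EVs, against 17.8%, 14.8% and 8.52% in HS-EVs. The 3 members together took 0.810% to 1.88% of the reads other than bta-miR-1246 in control-EVs and 1.74% to 2.74% in HS-EVs. Of all reads, the 3 members took 0.289%, 0.325% and 0.304% in control-EVs against 0.0252%, 0.463% and 0.425% in HS-EVs.

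On the scale of normalized read counts, the members also differed in their spread between libraries. Over all 6 libraries, the coefficient of variation (CV, the SD as a percentage of the mean) of the normalized read count was 47.8% for bta-miR-26a, 43.1% for bta-miR-26b and 10.8% for bta-miR-101. Among the 48 miRNAs with 100 or more reads in every library, where the median CV was 28.9%, bta-miR-101 had the second lowest after bta-let-7e (10.5%). bta-miR-26a and bta-miR-26b took places 41 and 39 from the lowest. Counting error alone gives a CV between 2.61% and 5.75% for bta-miR-26a and between 4.08% and 9.71% for bta-miR-101, as far as a recovered read stands for 1 counted molecule, which is not known. Within groups, the CV of bta-miR-26a was 47.4% in control-EVs and 35.9% in HS-EVs, and that of bta-miR-101 was 6.43% and 13.9%. The order of spreads depended on the scale: as shares of all reads, control-EVs had a CV of 5.08% for bta-miR-26a and 39.4% for bta-miR-101, and over the 6 libraries it was 56.3% and 62.7%. As shares of the reads other than bta-miR-1246, the CV over the 6 libraries was 49.96% and 10.9%, close to that of the normalized read counts. By log2 fold change, bta-miR-26b and bta-miR-26a took places 2 and 3 from the highest of the 48, and bta-miR-101 place 28, where the median was -0.07.

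**Figure D4:**
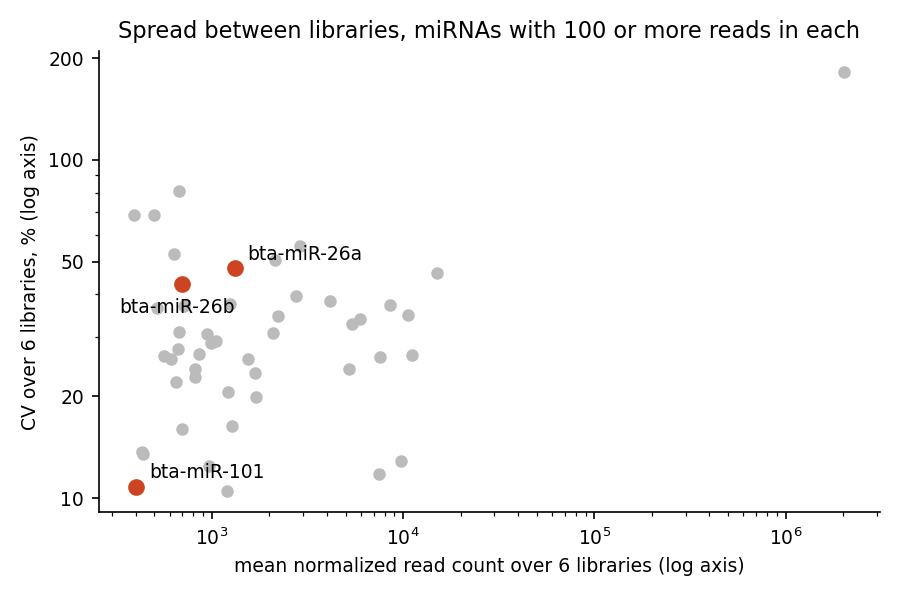
CV over the 6 libraries (vertical log axis, %) against the mean normalized read count (horizontal log axis) of the 48 miRNAs with 100 or more reads in every library, with the 3 members in red. bta-miR-101 lies near the lower edge at 10.8%, while bta-miR-26a and bta-miR-26b lie above the median of 28.9%.

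The level of bta-miR-122 ran opposite to that of the miR-26 family. Normalized read counts of bta-miR-122, the hallmark miRNA of hepatocytes that is also found in serum, reached 12232, 25400 and 21350 for control-EVs against 13633, 9840 and 7524 for HS-EVs. Across the 6 libraries, the summed level of this miRNA with bta-miR-192 and bta-miR-194, which are also found in liver, took the reverse order of bta-miR-26a (Spearman's rho -1, Pearson's r -0.98 on log2 values, n = 6). Without the 2 libraries farthest from the median of that sum, control-EVs replicate 2 and HS-EVs replicate 3, r was -0.96. For bta-miR-26b r was -0.96 and for bta-miR-101 it was 0.82, over the same libraries and the same scaling factors. The sum was almost all bta-miR-122, and the other 2 markers did not have that order. bta-miR-192 had 71.6, 87.2 and 92.9 normalized read counts in control-EVs against 65.7, 90.2 and 66.8 in HS-EVs, and bta-miR-194 had 20.2, 37.7 and 27.7 against 20.5, 35.2 and 14.7. Both were low in HS-EVs replicate 3 and control-EVs replicate 1 and high in HS-EVs replicate 2, all libraries with much bta-miR-26a. The sum of the 3 markers was 12324 to 25525 in control-EVs and 7605 to 13719 in HS-EVs, and limma gave bta-miR-122 a log2 fold change of -0.91 (adjusted p = 0.873). All 3 had reads in every library, and their part in the levels of the members was not tested.

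The 7 blood cell markers bta-miR-451, bta-miR-486, bta-miR-144, bta-miR-223, bta-miR-142-5p, bta-miR-142-3p and bta-miR-150 summed to 834 to 1623 normalized read counts in control-EVs and 590 to 1101 in HS-EVs. Their sum had a Pearson's r of -0.01 with bta-miR-26a and 0.26 with bta-miR-101 over the 6 libraries, which became -0.16 and 0.59 without the farthest 2, control-EVs replicate 1 and HS-EVs replicate 2. The sum was mostly bta-miR-486, at 787 ± 382 for control-EVs against 478 ± 244 for HS-EVs. By log2 fold change, 5 of the 7 were negative and 2 positive. The positive ones were bta-miR-150 (0.91, adjusted p = 0.873 from limma) and bta-miR-142-5p (0.11). All 7 had at least 2 reads in every library, and their part in the levels of the members was not tested. The 6 granulosa miRNAs summed to 8346 to 16553 in control-EVs and to 8509 to 15241 in HS-EVs, mostly from bta-miR-21-5p. Their sum had an r of -0.01 with bta-miR-26a, and of 0.39 without the replicate 1 libraries of both groups, which lay farthest from the median of the sum.

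The miRNA most like bta-miR-26a over the 6 libraries was bta-miR-26b itself (Pearson's r 0.98 on log2 normalized read counts), the highest of 129 candidates with 10 or more reads in every library. bta-miR-210, the hypoxia-induced miRNA, followed with an r of 0.98 and bta-miR-125b with 0.97. For bta-miR-26b, bta-miR-23b-3p (0.96) and bta-miR-210 (0.95) came next. The pattern of bta-miR-101 was most like that of bta-miR-369-3p, of the imprinted DLK1-DIO3 locus, with an r of 0.98, followed by bta-miR-202, a miRNA of the gonads, with 0.96, and bta-miR-92b with 0.86. Normalized read counts of bta-miR-202 reached 1672, 1965 and 1879 for control-EVs against 2087, 1473 and 1015 for HS-EVs. The correlation between bta-miR-26a and bta-miR-101 was -0.80, and -0.86 without control-EVs replicate 2 and HS-EVs replicate 3. Without HS-EVs replicate 1, r of bta-miR-26a was 0.997 with bta-miR-26b, 0.988 with bta-miR-210 and 0.975 with bta-miR-125b. That of bta-miR-26b was 0.982 with bta-miR-23b-3p and 0.990 with bta-miR-210. That of bta-miR-101 was 0.984 with bta-miR-369-3p, 0.954 with bta-miR-202 and 0.863 with bta-miR-92b. These correlations describe 6 libraries that share their scaling factors, and the leading ones were picked from many candidates.

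In the order of mean levels, the mean of each member differed from those of its neighbours by less than the SD of either over the 6 libraries, which was not tested further. bta-miR-26a, at 1320 ± 631 (SD, n = 6), lay between bta-miR-335 at 1542 ± 397 (SD, n = 6) and bta-miR-29a at 1268 ± 207 (SD, n = 6), of which bta-miR-335 was higher in 5 of 6 libraries and bta-miR-29a in 3. bta-miR-26b, at 696 ± 300 (SD, n = 6), lay between bta-let-7d and bta-miR-11980, which were higher in 3 and 2 of 6 libraries. bta-miR-101, at 402 ± 43.5 (SD, n = 6), lay between bta-miR-30a-5p and bta-miR-3432a, which were higher in 4 and 3 of 6 libraries.

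Of 10 other miRNAs known in other cells as repressors of EZH2, 7 were listed. By limma, 0 of these 7 and 0 of all 512 miRNAs (0%) passed the study's threshold in either direction. The median log2 fold change of the 7 was -0.24, against 0.01 for all 512 miRNAs, with 5 negative and 2 positive. The most abundant was bta-miR-25, whose normalized read counts averaged 2654 ± 844 for control-EVs against 1798 ± 455 for HS-EVs. limma gave it -0.54 as log2 fold change, with an adjusted p of 0.873. bta-miR-30d had 871 ± 111 against 768 ± 259 (log2 fold change -0.24). bta-miR-98, of the let-7 family, had 59.0 ± 13.5 against 74.8 ± 8.76 (log2 fold change 0.36). Groups overlapped in these 3 miRNAs, which alone had 10 or more reads in every library. bta-miR-214 had 3 to 37 reads, bta-miR-144, which also stands in the blood cell list, had 2 to 9, bta-miR-138 at most 3 and bta-miR-137 at most 1. bta-miR-124a, bta-miR-124b and bta-miR-217 were not listed.

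Leaving out HS-EVs replicate 1 gave log2 fold changes of 1.08 for bta-miR-26a, 0.98 for bta-miR-26b and -0.25 for bta-miR-101. Without both libraries of replicate 1, a choice made after seeing the data, they were 1.44, 1.36 and -0.29, with adjusted p-values of 0.351, 0.336 and 0.574 from limma. The 31 miRNAs that limma then called, of 512, held no member.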

How the data were processed

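The authors extracted adapters and unique molecular identifiers with Cutadapt 1.11, collapsed reads with the same identifier, mapped them with Bowtie2 2.2.2 to the bovine genome (UMD3.1 per the labels) and to miRBase, and scaled the counts by TMM in edgeR. How multi-mapping reads were assigned was not given in the sources used here. The deposited value per miRNA and library is a signal that is never negative (a normalized read count), not a raw count. All values (100%, tolerance 0.001) were whole multiples of the smallest positive value of their library. The whole reads recovered so were used for shares, ratios and count tests.

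Groups came from the sample labels. limma 3.58.1 (R 4.3.3) was run on log2(value + 1) over all 512 miRNAs, with Benjamini-Hochberg adjustment, no filter and no block. A log2 fold change on this scale understates changes of miRNAs with few reads. Recovered reads were tested with edgeR 4.0.16 (quasi-likelihood) and DESeq2 1.42.0. Wilson intervals (95%) and counting intervals cover counting error only. A floor of 3 reads was below every value of the members. Single values were compared by exact permutation of the 6 libraries. The fits were tested on simulated data. Counts differed beyond sampling noise between all pairs of libraries. The 4 identifiers, the marker lists and the tests were chosen with earlier results of these data known. Named miRNAs were the members, the 3 most correlated with each, their neighbours in mean level and the lists. The alternatives are other pseudocounts, scalings, filters and tests, a replicate block and leaving out libraries.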

Additional observations from a re-analysis of the deposited data

How the results depend on the processing

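Under the alternatives run, log2 fold changes of bta-miR-26a and bta-miR-26b turned only on reads scaled by all reads (-0.64 for both), and bta-miR-101 stayed below 0 in all. No alternative moved a member past the study's threshold. With each library left out, they lay between 0.60 and 1.25 for bta-miR-26a, 0.62 and 1.27 for bta-miR-26b and -0.25 and -0.05 for bta-miR-101. Calls over all miRNAs numbered 0 in the deposited values, 1 with a pseudocount of 0.5, 1 on reads scaled by reads other than bta-miR-1246, 2 with limma's trend, 3 with edgeR's quasi-likelihood test, 0 to 4 with each library left out (4 without control-EVs replicate 2, 2 without HS-EVs replicate 1, 3 without HS-EVs replicate 2) and 31 without both libraries of replicate 1. The cause was not tested. With a replicate block they numbered 0, and the log2 fold changes stayed at 0.89, 0.89 and -0.15. Deviations of same-numbered libraries correlated by 0.14, 0.14 and 0.08. The last was under the 0.1 set for pairing and no source ties the numbers to shared cultures, so they were not taken as pairs, although each library correlated best with its own number.

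The difference in log2 ratio of bta-miR-26a to bta-miR-26b was near 0. With each library left out it ranged from -0.078 (without HS-EVs replicate 3) to 0.104 (without HS-EVs replicate 1). It was 0.0822 without both libraries of replicate 1. For shares of all reads, the difference in percentage points ranged from -0.0127 to 0.112 for bta-miR-26a and from -0.0126 to 0.0499 for bta-miR-26b, and turned below 0 without HS-EVs replicate 2 or 3, while it ranged from -0.0562 to -0.0238 for bta-miR-101. Without both libraries of replicate 1 they were 0.117, 0.0535 and -0.0402. Among reads other than bta-miR-1246, the difference ranged from 0.333 to 0.762 for bta-miR-26a and from 0.201 to 0.3996 for bta-miR-26b, lowest for both without HS-EVs replicate 3. That of bta-miR-101 ranged from -0.0249 to 0.0139 and turned above 0 without control-EVs replicate 3 or HS-EVs replicate 3, and it was -0.0250 without both libraries of replicate 1. With 3 libraries a group, the exact tests could not pass 0.05.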
